A study of Mus musculus with 2 samples.

Results

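Replication-dependent histone genes encode the histones that package newly made DNA. Their members here are the genes whose symbols name a linker histone H1f1 to H1f5 or a clustered H2A, H2B, H3 or H4 gene, without pseudogenes. This rule found 63 genes among the 32544 genes of the count tables, with 5 in the H1 class, 17 in H2A, 17 in H2B, 12 in H3 and 12 in H4. The 58 members outside H1 are called core histone genes below. The cells were bone marrow-derived monocytes (BMDMs) from mice, driven toward osteoclasts (OCs) with M-CSF at 50 ng/ml together with RANKL at 100 ng/ml, and profiled a day after RANKL by droplet single-cell RNA sequencing. One library carried the genotype LysM-Cre;Arid1a fl/fl and is called the mutant library, and the other was labelled only as control, with no allele given. LysM-Cre drives the recombinase from the lysozyme gene of myeloid cells, so that cells outside this lineage keep Arid1a, which encodes a DNA-binding part of the BAF chromatin remodeler. With 1 library per group there was no replicate check and no test across samples, and differences of genotype, culture and library preparation cannot be told apart.

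Core histones form the spool of the nucleosome, and linker histone H1 binds where DNA enters and leaves it. Transcription of these genes is known to be tied to S phase, when NPAT recruits the machinery to the histone gene clusters. Their mRNAs usually end in a conserved stem-loop in place of a poly(A) tail. The stem-loop is bound by SLBP, and the U7 complex directs the cut behind it. A 3′ kit primes on runs of A, so such mRNAs are counted only where an A-rich stretch or a polyadenylated form is primed. Levels are therefore compared for the same gene between cells and not read as the abundance of one gene over another.

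The stem-loop was searched in GRCm39 within 300 bases behind each stop codon, allowing 2 mismatches to its common form. It was found for 59 of 63 members, in 43 without a mismatch, and began 22 to 59 bases behind the stop codon. H2bc21, H2bc22, H2bc23 and H2bc24 had no match in this window. The elements below belong to the H1 and H2A genes with the most UMIs and to the pair with the lowest ratios of cycling over non-cycling cells among the 28 members with a mean of at least 5 counts per 1e6 UMIs. Capitals mark the stem-loop.
H1f5, chr13:21964002-21964027, minus strand: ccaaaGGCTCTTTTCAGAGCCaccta
H2ac8, chr13:23754837-23754862, minus strand: acaaaGGCTCTTTTCAGAGCCattca
H2bc4, chr13:23868625-23868650, plus strand: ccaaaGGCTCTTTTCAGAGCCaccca
H4c9, chr13:22225131-22225156, minus strand: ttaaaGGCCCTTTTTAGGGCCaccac
H1f5, H2ac8 and H2bc4 carried the common form, and H4c9 differed from it by 1 mismatch. The annotated main transcript of 20 members ended more than 100 bases past the stem-loop on the genome, with introns counted in this distance. Among them was H2bc4, where the end lay 8246 bases past it on the genome, across intron, so that the transcript itself is shorter than this. Spliced transcripts were annotated for 8 members, H2bc4 with 5 of them.

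Promoters were read in GRCm39 as the 250 bases before each annotated start, and 4 motifs were searched on both strands. CCAAT stood in 79.4% of the member promoters and in 36.5% of 21770 promoters of all genes. TATAAA stood in 50.8% against 11.9%. TTTGCAT, a part of the octamer element, was in 23.8% against 4.03%, with 41.2% of H2B and none of the 5 H1 promoters. The H1 box AAACACA was in 11.1% against 5.88%, and in 3 of 5 H1 promoters. The 150 bases before the start are shown for all 5 H1 genes, with H2ac8 as a core gene that differed little. Capitals mark the motifs on either strand, and none of the matches shown overlap.
H1f5, chr13:21964796-21964945, minus strand: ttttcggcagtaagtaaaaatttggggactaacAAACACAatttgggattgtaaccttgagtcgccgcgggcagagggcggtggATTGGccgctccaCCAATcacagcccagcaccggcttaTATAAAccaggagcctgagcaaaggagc
H1f4, chr13:23806542-23806691, minus strand: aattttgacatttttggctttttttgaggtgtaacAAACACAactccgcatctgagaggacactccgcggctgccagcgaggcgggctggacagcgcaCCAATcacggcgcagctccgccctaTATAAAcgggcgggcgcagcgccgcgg
H1f2, chr13:23922641-23922790, plus strand: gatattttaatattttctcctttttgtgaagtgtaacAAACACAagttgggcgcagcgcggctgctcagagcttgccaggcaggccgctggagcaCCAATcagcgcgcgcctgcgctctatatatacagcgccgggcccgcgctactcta
H1f3, chr13:23737286-23737435, plus strand: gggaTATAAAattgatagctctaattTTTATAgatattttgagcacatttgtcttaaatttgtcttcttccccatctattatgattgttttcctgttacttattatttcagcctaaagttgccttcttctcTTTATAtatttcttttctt
H1f1, chr13:23947499-23947648, plus strand: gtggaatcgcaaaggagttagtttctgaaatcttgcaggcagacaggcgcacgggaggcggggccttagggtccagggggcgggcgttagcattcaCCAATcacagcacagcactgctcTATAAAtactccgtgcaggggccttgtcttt
H2ac8, chr13:23755395-23755544, minus strand: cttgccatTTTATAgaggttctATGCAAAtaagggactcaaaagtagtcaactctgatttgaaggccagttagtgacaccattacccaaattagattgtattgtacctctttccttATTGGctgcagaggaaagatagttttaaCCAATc
The promoters of H1f5, H1f4 and H1f2 held the H1 box, CCAAT and, for H1f5 and H1f4, TATAAA, whereas H1f1 had CCAAT and TATAAA without the H1 box in this window. H1f3 had TATAAA but neither CCAAT nor the H1 box, and its annotated start lies well upstream of its start codon. A match is a description of the letters and shows no binding.

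A minimum of 500 genes and a maximum of 10% mitochondrial UMIs per cell kept 6269 control and 5663 mutant cells, with medians of 23978 and 21734 UMIs. The libraries shared 8 cell barcodes. Arid1a stood at 51.9 CPM in the control and 20.4 CPM in the mutant library (counts per 1e6 UMIs), although a 3′ count need not read the floxed exons and does not check their removal. The 4 osteoclast markers summed to 231.6 and 97.9 CPM, the 4 monocytic markers to 883 and 1651 CPM, and the 4 neutrophil markers to 264 and 1982 CPM. Stromal, B-cell, T-cell and erythroid markers summed to at most 11.4 CPM in either library. A total of 34 control and 156 mutant cells held at least 10 UMIs of the neutrophil markers.

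At least 1 UMI was counted for 59 members in the control and for 58 in the mutant library. H2ac1, H2ac19, H2bc1 and H3c14 were at 0 in both, which allows up to 0.0183 CPM in the control and 0.0228 CPM in the mutant library (3 counts). H2bc23 had 1 UMI in the control. A mean of 5 CPM over both libraries was reached by 28 members, and the other 35 are given by range or name only. Identical copies limit this: for 31 members over 50% of 90-base windows recur in another gene's transcripts, and for 7 all of them do, including H2ac19, H3c14 and H2bc23. Reads that fit several copies are not assigned, so these members are uncertain. H2ac18 and H2bc18 also shared all their windows, yet held 1695 and 1417 UMIs in the control and are among the 28. H1f1, H1f2 and H1f5 shared no window with another gene, and H1f3 shared 2.84%. H1f4 is uncertain, since the last 300 bases of its transcript lie wholly within those of H2bc6 on the same strand. Members that overlap another on the opposite strand (H4c4 with H2bc6, H2ac6 with H2bc4, H3c3 with H2bc3) are uncertain too, as use of strand in counting was not given in the sources used here.

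In all cells, the 63 members together held 1154 CPM in the control (95% exact Poisson interval 1148 to 1159) and 882 CPM in the mutant library (877 to 887). These intervals cover counting error only, as do all below. The log2 ratio of mutant over control was -0.39 (-0.40 to -0.38). The H1 genes held 457 CPM in the control and 253 CPM in the mutant library, 1.81-fold lower (log2 ratio -0.85, interval -0.87 to -0.83). The core histone genes held 697 and 629 CPM (log2 ratio -0.15, interval -0.16 to -0.13). H1 thus made up 39.6% of member UMIs in the control against 28.7% in the mutant library. This share depended on the members counted, at 22.5% and 17.1% without H1f5, and at 69.1% and 61.1% among members with at most 25% shared windows.

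**Figure D1:**
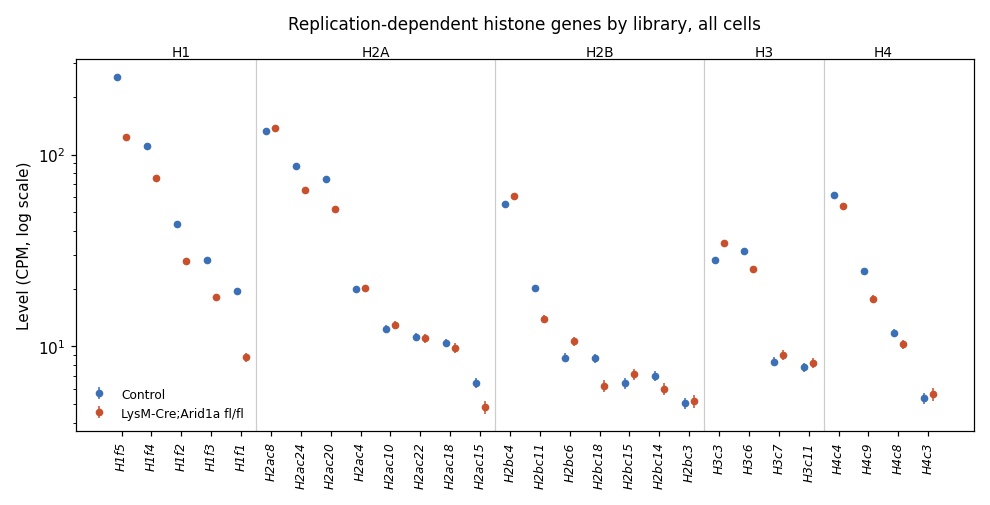
Levels of the 28 members that reached a mean of 5 CPM, in all cells of the control and mutant libraries (vertical log axis, CPM; points, 1 library each; bars, 95% exact Poisson intervals). All 5 H1 genes lie lower in the mutant library, from H1f5 at 254 against 123 CPM to H1f1 at 19.5 against 8.75 CPM, while H2ac8 lies at 132 and 137 CPM.

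H1f5 had the most UMIs of all members, 41549 in the control against 16173 in the mutant library. Its level was 254 CPM in the control and 123 CPM in the mutant library, a log2 ratio of -1.05 (-1.07 to -1.02). H1f1 stood at 19.5 and 8.75 CPM (log2 ratio -1.16, interval -1.25 to -1.06). H1f2 and H1f3 had log2 ratios of -0.64 each, and H1f4 had -0.57 (-0.61 to -0.53), just inside the 1.5-fold limit. All 5 are linker histones that compact nucleosome arrays. No member was at least 1.5-fold higher in the mutant library, whereas 13.1% of all 8650 genes at this level were. H1f1, H1f2, H1f3 and H1f5 were at least 1.5-fold lower, 4 of 28, against 5.94% of all genes. The median log2 ratio of the 28 members was -0.19, and that of all genes 0.05. H3c4, at 5.05 and 2.14 CPM, fell short of the mean of 5 CPM and had a log2 ratio of -1.24 (-1.44 to -1.04); it was singled out after its values were seen.

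Core histone genes lay on both sides of 0. Of 23 core members at 5 CPM, 12 had a log2 ratio below 0 and 11 above it, from -0.53 for H2bc11 to 0.30 for H3c3, and none passed 1.5-fold in either direction. H2ac8, the core gene with the most UMIs, stood at 132 CPM in the control and 137 CPM in the mutant library (log2 ratio 0.05, interval 0.02 to 0.08). H2ac20 stood at 74.9 and 52.3 CPM (-0.52, interval -0.56 to -0.48). H4c4 stood at 61.5 and 54.0 CPM (-0.19, interval -0.23 to -0.14). H2ac24, at 87.6 and 65.5 CPM, shares 92.4% of its windows with other genes. By class, the summed log2 ratio was -0.19 for H2A, -0.04 for H2B, -0.05 for H3 and -0.24 for H4. With totals that excluded mitochondrial and ribosomal protein genes, each ratio over all cells was lower by 0.11, so that ratios between 0 and this size, such as that of H2ac8, took the opposite sign, while all 5 H1 genes kept theirs.

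The genes lie in 5 loci, 1 on chromosome 3 and 4 on chromosome 13. The largest, chr13:23715220-23948389, holds 28 members including H1f1 to H1f4. Its core genes summed to a log2 ratio of 0.00 in all cells, next to H1 genes that were lower. The 18 members of chr13:21899933-22021700, with H1f5, summed to -0.74, and its 17 core members to -0.29. Core members of the chromosome 3 locus (10 members) summed to -0.45, and the 5 of chr13:22219334-22227846 to -0.51. H2ac1 and H2bc1, at 0, form the fifth locus. The core sums differed by sequence sharing at the 1 limit used, which was chosen after the data were seen. The 16 core members with at most 25% shared windows summed to -0.35, against -0.07 for the 42 with more. The latter include H2ac8, the core gene with the most UMIs, at 31.9% shared windows. Single members lay on both sides of 0 in each set, with H2bc6 at 0.28 and H2ac20 at -0.52 in the first. In the second, H3c3 was at 0.30 and H2bc11 at -0.53. The part of sequence sharing in the result was not tested.

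Cycling state was set in cells with at least 5000 UMIs after thinning each to 5000 UMIs. Cells with at least 3 UMIs of Mki67, Top2a, Aurka and Cdk1 are called cycling. They made up 39.7% of control cells (2421 of 6101, exact binomial interval 38.5 to 40.9%) and 33.5% of the mutant library (1781 of 5312, interval 32.3 to 34.8%). Mki67 itself stood at 178 CPM in the control and 104 CPM in the mutant library over all cells (log2 ratio -0.77). Aurka was at -0.20, Top2a at 0.09 and Cdk1 at 0.12. The gate thus need not select the same cells in each library, and its part in these shares was not tested. Shallower cells left out numbered 168 and 351. Cycling cells had higher medians of UMIs, at 27433 in the control against 25270 in the mutant library, against 22402 and 21360 in non-cycling cells. Levels use all UMIs of these cells.

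Members summed to 1939.5 CPM in cycling and 535 CPM in non-cycling cells of the control, a 3.63-fold difference (log2 ratio 1.86, interval 1.84 to 1.87). In the mutant library they summed to 1677 and 427 CPM, 3.92-fold (1.97, interval 1.95 to 1.99). Of the 28 members, 26 were at least 1.5-fold higher in cycling cells in the control, where 4.94% of all genes were, and 26 in the mutant library, where 6.06% were. The median log2 ratio of the 28 was 2.07 in the control against 2.36 in the mutant library, against 0.06 and 0.05 for all genes. The order of the libraries in this summed ratio depended on the gate: with 1 UMI enough to call a cell cycling, it was 2.17 in the control against 2.07 in the mutant library.

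**Figure D2:**
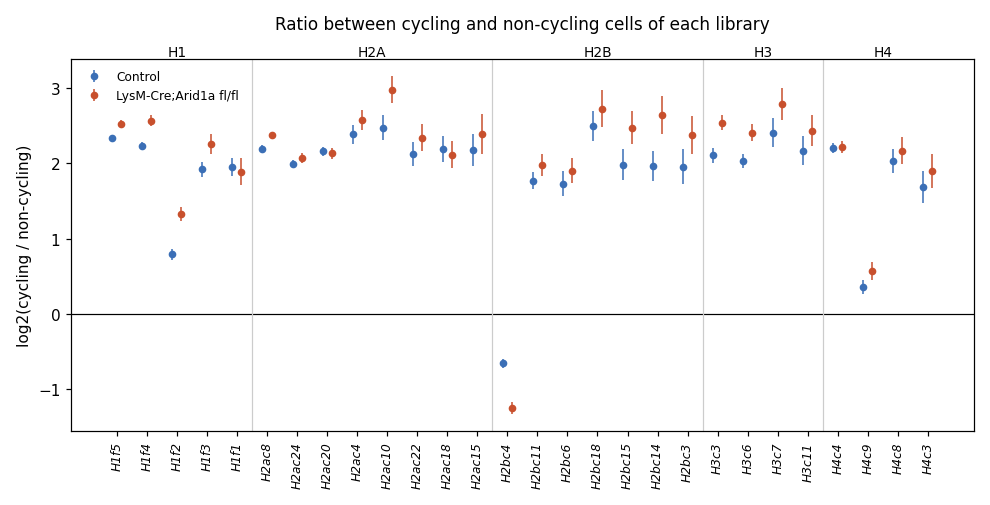
Log2 ratio of the level in cycling over non-cycling cells for the 28 members, in each library (points, 1 library each; bars, exact 95% intervals, counting error only). 26 of 28 lie above 1.5-fold in each library, and H2bc4 lies below 0 at -0.66 in the control against -1.25 in the mutant library.

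H2ac10 had the largest mean ratio, with 22.7 CPM in cycling and 4.09 CPM in non-cycling control cells (log2 ratio 2.47), and 29.0 and 3.68 CPM in the mutant library (2.98). H3c7, H2bc18 and H2ac4 followed closely, with control log2 ratios of 2.41, 2.50 and 2.39. Their intervals overlapped that of H2ac10 in the control, so their order there is not resolved. H1f2 was less tied to cycling, at 0.79 in the control against 1.32 in the mutant library. H4c9 was at 0.36 and 0.57. H2bc4 went the other way. Its level was 41.7 CPM in cycling and 65.9 CPM in non-cycling control cells, and 32.5 and 77.3 CPM in the mutant library. Its transcripts are spliced, and its main transcript ends far past the stem-loop on the genome, across intron. Spliced transcripts were not particular to H2bc4. H2bc6 has 6 of them, and its main transcript ends 2919 bases past the stem-loop on the genome. The forms of the 2 genes need not match, as their introns can lie in different places. The log2 ratio of H2bc6 was 1.73 for control cells and 1.90 for mutant cells. The part of transcript form was not tested.

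Within cycling cells, the summed log2 ratio of mutant over control was -0.21 (-0.22 to -0.20), and in non-cycling cells -0.32 (-0.34 to -0.30). The H1 genes stood at 799 and 517 CPM in cycling cells (log2 ratio -0.63, interval -0.65 to -0.61), and at 188 and 102 CPM in non-cycling cells (-0.88, interval -0.92 to -0.84). The core histone genes stood at 1141 and 1159.9 CPM in cycling cells (0.02, interval 0.01 to 0.04), and at 347 and 325.5 CPM in non-cycling cells (-0.09, interval -0.12 to -0.07). The H1 ratio was below the core ratio by 0.65 in cycling cells (interval of the difference -0.68 to -0.62) and by 0.79 in non-cycling cells (-0.83 to -0.74). Core ratios this close to 0 took either sign with the scaling, at -0.09 in cycling cells with totals excluding mitochondrial and ribosomal protein genes and 0.08 when every cell had equal weight. Over all alternatives run, the core ratio in cycling cells ranged from -0.17 to 0.08 and the H1 ratio from -0.74 to -0.39.

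All 5 H1 genes were lower in the mutant library in both states. H1f5 stood at 461 and 259.9 CPM in cycling cells, a log2 ratio of -0.83 (-0.86 to -0.80), and at 90.8 and 45.1 CPM in non-cycling cells (-1.01). H1f1 was at -1.03 and -0.97. H1f4, H1f2 and H1f3 lay between -0.39 and -0.32 in cycling cells and between -0.88 and -0.66 in non-cycling cells. Thus 2 of 28 members were at least 1.5-fold lower in cycling cells, against 6.45% of all genes, and 5 of 28 in non-cycling cells, against 5.66%. No member was 1.5-fold higher in either state, against 14.4% of all genes in cycling and 12.6% in non-cycling cells. The median of the 28 was -0.01 in cycling and -0.15 in non-cycling cells, against 0.06 for all genes in both.

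Several core genes were higher in cycling cells of the mutant library. H3c3, which encodes an H3 protein, stood at 49.2 and 73.1 CPM (log2 ratio 0.57, interval 0.50 to 0.64). H2bc6 was at 0.47, H2bc15 at 0.43, H3c7 at 0.37 and H2ac10 at 0.35. H2ac8 was at 235 and 281 CPM (0.26, interval 0.23 to 0.29). Other core genes were lower, with H2ac20 at -0.37, H2bc4 at -0.36, H4c9 at -0.34 and H2bc11 at -0.33.

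**Figure D3:**
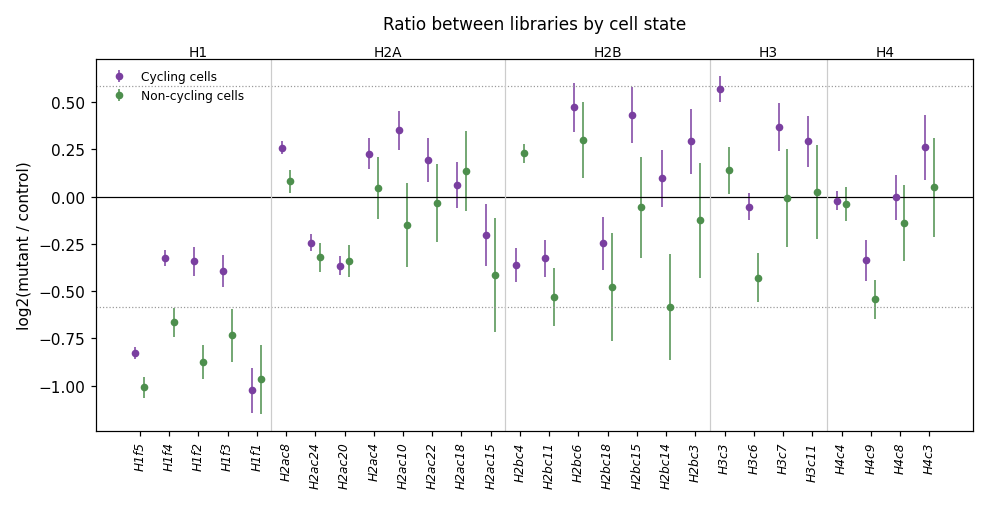
Log2 ratio of mutant over control for the 28 members in cycling and in non-cycling cells (points; bars, exact 95% intervals, counting error only; dotted lines, 1.5-fold). All 5 H1 genes lie below 0 in both states, and core genes lie on both sides, from H2ac20 at -0.37 to H3c3 at 0.57 in cycling cells.

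The same held at each level of cycling-gene UMIs. In control cells with 0, 1 to 2, 3 to 5, 6 to 9 and 10 or more of these UMIs, H1 stood at 93.1, 275, 695, 911 and 974 CPM. In mutant cells it stood at 51.7, 164, 439, 597 and 616 CPM. Core histone genes stood at 231, 455, 1006, 1291 and 1358 CPM in control cells and 236, 436, 999, 1336 and 1342 CPM in mutant cells. H1 was lower in the mutant library in all 5 bins, while the core sum was higher there in 2 bins and lower in 3.

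**Figure D4:**
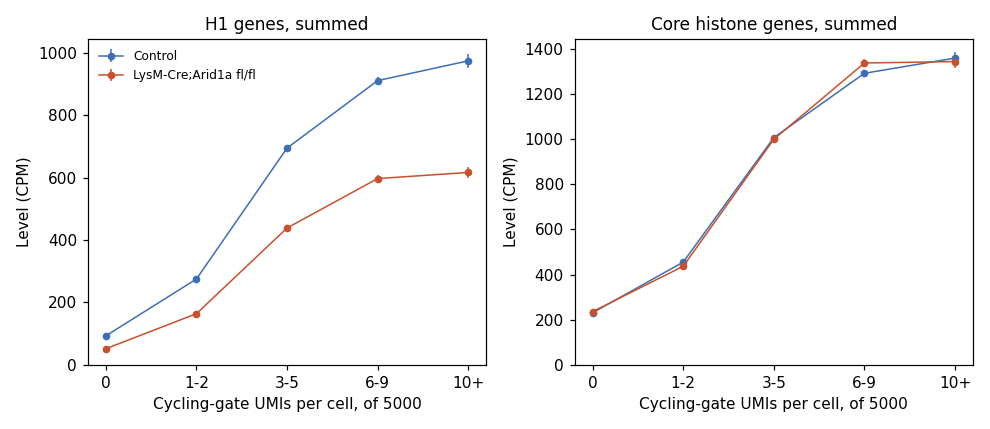
Summed level of the H1 genes (left) and the core histone genes (right) by the number of cycling-gate UMIs per cell at 5000 UMIs (points, 1 library each; bars, 95% exact Poisson intervals). H1 is lower in the mutant library in each bin, from 93.1 against 51.7 CPM at 0 to 974 against 616 CPM at 10 or more, and the core points of the libraries lie close, from 231 against 236 CPM to 1358 against 1342 CPM.

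A second gate used 12 genes of DNA replication, such as Rrm2 and Tyms, with at least 5 UMIs. It held 1780 control and 1348 mutant cells. There the members summed to 1691 and 1380 CPM (log2 ratio -0.29), with H1 at -0.72 and the core genes at -0.05. In cells inside both gates, H1 made up 42.3% of member UMIs in the control against 31.8% in the mutant library. In cells outside both it made up 31.6% and 21.0%. Among cycling cells with at least 3 UMIs of the osteoclast markers, 233 in the control against 48 in the mutant library, H1 stood at 881 and 419 CPM and core genes at 1142 and 1009 CPM. Cells with at least 10 neutrophil-marker UMIs, 31 and 141 at this depth, had an H1 level of 464 and 441 CPM and a core level of 711 and 940.4 CPM. Without cells marked by neutrophil genes or by at least 3 UMIs of stromal markers, the log2 ratio of H1 was -0.88 in all cells and that of the core genes -0.17.

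At 5000 UMIs, the median cell held 2 member UMIs in each library, and 18.6% of control and 24.5% of mutant cells held none. The fifth of cells with the most held 61.5% and 71.0% of all member UMIs. Cells with at least 10 are called histone-high and made up 22.3% of control (21.2 to 23.3%) and 14.4% of the mutant library (13.5 to 15.4%), which differed by -7.85 percentage points (-9.27 to -6.43). Of histone-high cells, 85.5% and 85.8% were in the cycling gate. Within cycling cells the share was 48.0% in the control against 36.9% in the mutant library, a difference of -11.1 points (-14.1 to -8.06). By core genes alone, with at least 6 UMIs, the shares of cycling cells were 46.8% and 42.3%, a difference of -4.46 points (-7.52 to -1.39). The range of 8 to 11 UMIs held 594 control and 359 mutant cells, so the class is a range and not a type. At 20 UMIs the difference was -0.26 points, and at 10 of 2000 UMIs, a stricter limit, 0.46 points.

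**Figure D5:**
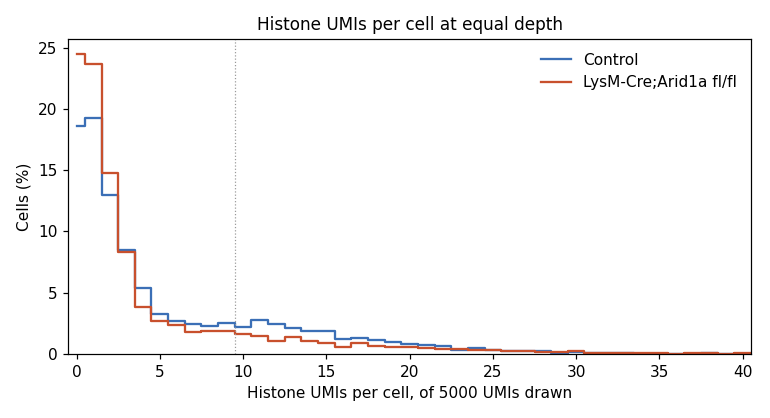
Share of cells (vertical axis, %) by the number of member UMIs at 5000 UMIs per cell (horizontal axis, drawn up to 40), in 6101 control and 5312 mutant cells; the dotted line marks the limit of 10. The control curve lies above the mutant curve just right of the limit, and 22.3% of control and 14.4% of mutant cells reach it.

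Of 20 genes of histone transcription and mRNA processing, 19 reached 5 CPM and none was 1.5-fold higher or lower in all cells, with a median log2 ratio of -0.02. In cycling cells Xrn1, a nuclease that degrades decapped RNA, was at least 1.5-fold higher at 0.59, and the lowest was Cstf2 at -0.54, with a median of -0.06. Slbp stood at 84.9 and 85.0 CPM and Npat at 15.5 and 16.5 CPM. In all cells Xrn1 was the highest of this list at 0.49, and Cstf2 the lowest at -0.41. Of 12 replication genes none passed 1.5-fold in all cells, and their median was -0.18. Of 12 histone chaperones 1 was 1.5-fold lower in all cells, Ipo4 at -0.69, an import receptor for histones. Nasp, which binds H1 and H3, was at -0.47, and Chaf1a, of the assembly factor CAF-1, at -0.49.

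Among 11 replication-independent variants, whose mRNAs are polyadenylated, at least in part for H2ax, 10 reached 5 CPM. In all cells, H1f10 stood at 16.8 CPM in the control and 6.18 CPM in the mutant library (log2 ratio -1.44), H2aj at 289 and 159 CPM (-0.86), and H2ax at 77.2 and 49.0 CPM (-0.66). These 3 were at least 1.5-fold lower and none was 1.5-fold higher, with a median of -0.05. H1f0, a linker variant known to accumulate in cells that stop dividing, stood at 24.6 and 31.0 CPM (0.33) in all cells. Here H1f0 was higher in cycling than in non-cycling cells of each library. It stood at 32.0 and 18.8 CPM in the control, and at 55.2 and 17.0 CPM in the mutant library. In cycling cells 2 were at least 1.5-fold higher, H1f0 at 0.79 and H2az2 at 0.68, and 2 were lower, H1f10 at -1.04 and H2aj at -0.91, with H2ax at -0.28 and a median of 0.13. In non-cycling cells none was 1.5-fold higher and 3 were lower, H1f10 at -1.74, H2ax at -1.13 and H2aj at -0.86, with H1f0 at -0.14 (-0.24 to -0.04) and a median of -0.25. H3f3a was at 0.32 and H3f3b at 0.00 in all cells.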

How the data were processed

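The deposited values were unnormalized UMI counts of each gene in each barcode, which per the file headers the authors obtained from Cell Ranger 6.1.0 for 10x 3′ libraries; GRCm39 is the build named in the submitters' processing notes. The annotation used in counting and any subsampling between libraries were not given in the sources used here. PCR copies are collapsed in UMIs. Cells with at least 500 genes and at most 10% mitochondrial UMIs were kept (186 control and 202 mutant barcodes left out), doublets included. UMIs were summed per library and scaled to a total of 1e6 (CPM). Intervals are 95% exact Poisson, conditional (log2 ratios) or Clopper-Pearson (shares), and a difference of shares or of log2 ratios was combined by square-and-add. With 1 library per group, called means past 1.5-fold at a mean of 5 CPM. The computation of ratios and intervals was tested on simulated data. Coordinates and sequences came from GRCm39 with GENCODE M39, which matched 31977 of 32544 genes. Python 3.11.15 with numpy 2.4.6, scipy 1.17.1, pandas 2.3.3 and scikit-learn 1.9.0 was used.

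The members and lists were chosen with earlier results of these data known. Named genes were the 4 members with the highest mean level per class, the 5 highest and 5 lowest ratios of mutant over control in all and in cycling cells, the 4 highest and 4 lowest ratios of cycling over non-cycling cells, members at 0, and the context lists. The H1 and core sums, the core-only cell share and the limit on shared windows were added after the data were seen. Alternatives covered scaling, cell filters, doublets, gates, thinning depth, the floor on levels and single members.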

Additional observations from a re-analysis of the deposited data

Results flagged for a closer look

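H2bc4 took opposite directions in the 2 cell states, with both intervals away from 0. Its log2 ratio of mutant over control was -0.36 in cycling cells (-0.45 to -0.27) and 0.23 in non-cycling cells (0.18 to 0.28). The summed core histone genes did so as well, at 0.024 in cycling cells (0.01 to 0.04) and -0.093 in non-cycling cells (-0.12 to -0.07). With the scaling that leaves out mitochondrial and ribosomal protein genes the core sums were -0.09 and -0.20, on the same side of 0. The difference between the cell states was not tested, since there was 1 library per group, and the intervals cover counting error only.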

How the results depend on the processing

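The summed H1 level was lower in the mutant library in 46 of 46 alternatives run over the 4 sets of cells. For the summed members, values below are log2 ratios of mutant over control in all, cycling, non-cycling and S-gate cells in this order, against -0.39, -0.21, -0.32 and -0.29 as reported. Without mitochondrial and ribosomal protein genes in the totals they were -0.50, -0.32, -0.43 and -0.41; the median of all genes moved by -0.11, the list median was -0.30 and 8 members were at least 1.5-fold lower. With median-of-ratios scaling they were -0.41, -0.24, -0.35 and -0.33, and with equal weight for every cell -0.36, -0.16, -0.37 and -0.24. Without H1f5 they were -0.25, -0.061, -0.21 and -0.15, and without cells marked by neutrophil or stromal genes -0.41, -0.23, -0.35 and -0.32. For members with at most 25% shared windows, an alternative chosen after seeing the data, they were -0.68, -0.47, -0.65 and -0.58, with a list median of -0.50. Without doublets they were -0.41 in all, -0.37 in non-cycling and -0.32 in S-gate cells.

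Gates and depth gave the following in cycling, non-cycling and S-gate cells: -0.27, -0.17 and -0.32 at 1 and 3 UMIs, -0.18, -0.43 and -0.40 at 2000 UMIs, and -0.22, -0.26 and -0.28 at 10000 UMIs. At 5 and 10 UMIs non-cycling and S-gate cells gave -0.39 and -0.25, and without Mki67 non-cycling cells gave -0.55. The log2 ratio of cycling over non-cycling cells, 1.86 in the control against 1.97 in the mutant library as reported, was 1.96 and 2.11 without doublets, 1.53 and 1.86 without Mki67, 2.17 and 2.07 at 1 UMI, 1.48 and 1.67 at 5 UMIs, 1.20 and 1.44 at 2000 UMIs, 2.28 and 2.31 at 10000 UMIs, 1.74 and 1.89 without H1f5, and 2.00 and 2.18 for members with at most 25% shared windows. The list median was -0.42 at a floor of 20 CPM and -0.31 without a floor. Members at least 1.5-fold lower numbered 8 at a floor of 1 CPM and 10 without one, where H2bc23 counts with its single UMI. The difference in histone-high cells was -3.33 points without H1f5, -10.5 at 5 UMIs, -0.26 at 20 UMIs, -10.9 at 10000 UMIs and, in the opposite direction, 0.46 at 2000 UMIs, where 10 UMIs are a stricter limit. No paired analysis was possible because each group has 1 library with no replicate number. The 1 library per group, priming on A and unassigned reads of near-identical copies limit each value, and their part was not tested.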

Other observations

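The share of A in the H1 coding sequences was 26.3 to 30.2%, against 18.6 to 22.6% in H2A, 18.7 to 19.7% in H3 and 20.2 to 21.5% in H4, with 23.4 to 27.0% in H2B, a range that overlaps that of H1. The densest stretch of 20 bases held 11 to 14 A in the H1 genes, 9 to 12 in H2A, 10 to 12 in H2B, 7 to 8 in H3 and 8 in H4, so that H1, H2A and H2B overlap. Whether the difference between libraries moves with this property was not tested.

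Members outside the 28 gave few UMIs. H3c15 had 302 UMIs in the control against 120 in the mutant library (log2 ratio -1.02) and, like H2bc4, was lower in cycling than in non-cycling cells of the control, at 1.37 and 2.23 CPM. H2ac6 had 512 and 236 UMIs (-0.80), and H4c2 144 and 61 (-0.92). These 3 were singled out after their values were seen.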
